A study of Mus musculus with 2 samples.

Results

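Many probe sets on a mouse expression array are not tied to a named gene by the annotation. These probe sets were examined here in mouse embryonic stem (ES) cells with and without Dnmt1. The members are the 2454 probe sets that the platform annotation used here pairs with no gene symbol and whose signal lay above the array's own median on at least 1 array. They were selected from 9160 such probe sets and from 45037 probe sets on the array outside the AFFX controls. They were chosen by signal level and not by ratio, so the levels below are a description of the choice and support nothing by themselves.

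The study hybridised total RNA to the Affymetrix MOE 430 2.0 array. There was 1 array from ES cells labelled as the control of the Dnmt1 KO and 1 array from ES cells labelled Dnmt1 KO. The title alone tells the groups apart, since the source name of both samples reads as the control. The sources used here give no strain, clone, passage, culture conditions or deleted part of the gene, and no treatment is named for either culture. With 1 array per group there was no test between groups, no spread between replicates and no p-value, and precision is limited by the number of arrays.

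Dnmt1 copies methylation marks onto the new DNA strand at replication. Mouse cells that lack it lose methylation across the genome. Some such cells are known for the expression of silenced sequences such as intracisternal A particle retrotransposons and germline genes. How far this holds in ES cells was not tested here. Probe sets without a named gene are of interest in cells without Dnmt1 because they can read noncoding transcripts, introns, repeats or genes that were never named. Nothing in the annotation used here says which of these a given member reads. An Affymetrix probe set is a group of short oligonucleotides, and the suffix of its ID tells how specific they are. The suffix _at marks probes meant for a single transcript. The suffix _a_at marks probes shared by alternative transcripts of a gene, _s_at marks probes shared by transcripts of different genes, and _x_at marks sets in which some probes are identical or nearly so to unrelated sequences. The letters of the probes were not used here, so members are given by ID and signal.

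Signals are MAS5 intensities on a linear scale. The floor of an array is its median over probe sets outside the AFFX controls, which was 60.9 for the control and 74.2 for the KO. A signal under the floor was raised to it, so a member that exceeds the floor of a single array has a bound in place of a ratio. Among the 20936 probe sets above both floors, the KO array was brighter by a median of 0.40 on the log2 scale, or 1.32-fold. Ratios below are KO over control relative to this shift, unless they are called as deposited. As a technical scale, different probe sets of the same gene differed in their log2 ratios with an SD of 0.24, pooled over 4704 genes, which covers neither cultures nor arrays.

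The labels were checked first. The Dnmt1 probe set 1422946_a_at went from a control signal of 1949.1 to a KO signal of 262.1, 9.83-fold lower, and the other 2 Dnmt1 probe sets were under the floor on the KO array alone. All 10 ES cell markers listed for the check were above both floors, with control signals from 361.8 to 9428.1 and KO signals from 1098.1 to 10844.9. They were not all at equal levels. Relative to the shift, Nanog was 2.51-fold and Esrrb 2.30-fold higher in the KO and Utf1 was 1.51-fold lower. The others differed by at most 1.17-fold (Zfp42). Of 8 fibroblast markers, which feeder cells would carry, 3 were above both floors and 5 on neither, and their summed signal was 752.8 and 1003.3. The sums in this paragraph are as deposited and hold the array-wide shift of 1.32-fold. Relative to the shift, Thy1 was 1.22-fold higher, Col1a1 1.55-fold lower and Col1a2 1.20-fold lower. Of 5 primitive endoderm markers 1 was above both floors, with summed signals of 262.5 and 365.7, and of 4 neural markers 3 were, with 988.7 and 942.7. The part of such cells in the values below was not tested. In bulk RNA, fewer cells with a transcript and less of it per cell cannot be told apart.

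Most unnamed probe sets were dim. Of the 9160, 19.2% were above both floors, against 53.4% of the 34945 probe sets with 1 gene symbol. A further 450 were above the control floor alone and 242 above the KO floor alone, and 6706 were above neither. The members above both floors had median signals of 120.2 (control) and 140.7 (KO), while the single-gene probe sets had 232.1 and 317.1. Of these 1762 members, 427 (24.2%) lay within 1.5 times the floor on both arrays and 1287 (73.0%) within 4 times. At the edge of the rule, 1430672_at, 1444164_at and 1458261_at were just inside with 74.3 on the KO array. Just outside were 1425031_at and 1425172_at with 74.2 on the KO array and 1440026_at with 60.9 on the control array.

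The suffix went with the level. The suffix _at made up 87.4% of the members, with 2144 of them, beside 140 with _a_at, 60 with _s_at and 110 with _x_at. Of all unnamed probe sets, 24.9% of those with _at passed the signal rule, compared with 71.4% for _a_at, 53.6% for _s_at and 43.7% for _x_at. Among members above both floors, the median control signal was 108.0 for _at, 391.6 for _a_at, 411.4 for _s_at and 252.8 for _x_at. Members whose probes are shared by several transcripts were thus brighter in the median than those with _at. This was not particular to unnamed probe sets. Single-gene sets above both floors had median control signals of 203.9 for _at, 326.25 for _a_at, 321.4 for _s_at and 371.1 for _x_at. Above the floor on at least 1 array were 56.1%, 76.7%, 77.6% and 66.3% of single-gene sets, in the same order.

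The 5 brightest members all carried _a_at and were near the top of the range on both arrays. They were 1449196_a_at (control signal 9620.5 and KO signal 11516.2), 1437005_a_at (9258.2 and 11202.5), 1455168_a_at (9572.7 and 10660.7), 1416624_a_at (9973.2 and 10226.4) and 1459986_a_at (9393.1 and 10840.7). Their ratios were small. Each was slightly brighter on the KO array as deposited and slightly below the shift, by 0.13 to 0.37 on the log2 scale.

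The unnamed probe sets had lower ratios than the named ones. Over the 1762 members above both floors the median log2 ratio was -0.11, with the middle 50% between -0.32 and 0.09, and 64.7% lay below the shift. The 18653 single-gene probe sets had a median of 0.01, with 48.5% below the shift, and the 521 with several symbols had -0.03. The direction for the members depended on the scaling: their median was 0.29 as deposited and 0.00 when each signal was divided by its own array's median. Their distance from the single-gene probe sets, a log2 difference of -0.13, does not depend on centring, but it was -0.08 under quantile normalization and under lowess, and -0.04 with the floor at the 75th percentile.

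Signal level moved with this difference. The probe sets above both floors were divided into quartiles of their mean log2 signal, and 51.4% of the members fell in the lowest against 22.8% of the single-gene sets. In the lowest quartile the medians were -0.19 for 906 members and -0.08 for 4257 single-gene sets. In the second they were -0.11 and 0.01, so the members were lower by 0.11 in both. In the third the medians were -0.01 and 0.05, and in the highest they were 0.00 and 0.03. The distance between members and single-gene sets was therefore 0.11 among dim probe sets and 0.02 among the brightest.

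By suffix, the median was lowest for _at. The 1485 members with _at had a median log2 ratio of -0.13, against 0.01 for the 13191 single-gene sets with that suffix. The 127 members with _a_at had 0.00, the 55 with _s_at had -0.07 and the 95 with _x_at had -0.02. Within the highest signal quartile the 128 members with _at had a median of 0.00, whereas the 865 in the lowest quartile had -0.19. As deposited the medians by suffix were 0.27 for _at, 0.40 for _a_at, 0.33 for _s_at and 0.39 for _x_at.

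Members above the floor on 1 array alone were split unevenly between the arrays. They passed the signal rule through that array only, so the split describes the choice and adds no support to the lower ratios. Of those 692 members, 65.0% were above it on the control array, compared with 46.2% of the single-gene probe sets in that position. The members above the floor on the control array alone had control signals from 61.1 to 163.5, with a median of 70.1, so most were close to the floor. Those above it on the KO array alone reached further, from 74.3 to 517.1, with a median of 84.2. The count was thus larger on the control side and the brightest single signals were on the KO side.

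Relative to the shift, 12 of the 1762 members above both floors were higher by 2-fold or more in the KO and 22 were at least 2-fold lower. Over all 20936 probe sets in that position, 0.946% were higher and 0.459% were lower, and the shares of the members were 0.681% and 1.25%. The lowest signal quartile held 15 of the 22 lower members. From the lowest to the highest quartile, 1.66%, 1.23%, 0.98% and 0% of the members were at least 2-fold lower. Single-gene sets had 0.66%, 0.61%, 0.22% and 0.13%. Which direction held more members turned with the scaling. As deposited, 46 of the 1762 members were higher and 5 lower, with 4.21% and 0.0955% over all probe sets above both floors. With each signal divided by its own array's median, 16 of the 1762 were higher and 11 lower, with 1.38% and 0.239% over all. Under each scaling the members had a smaller share higher and a larger share lower than all probe sets.

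The higher members were led by sets with many-fold differences at moderate signals. The highest ratio belonged to 1451626_x_at, with a control signal of 207.7 and a KO signal of 1960.5. It was 7.14-fold higher, or 9.44-fold as deposited, and had the 5th highest ratio among all 20936 probe sets. The next was 1436320_at, which went from 219.2 to 1627.6 and was 5.62-fold higher. The third was 1436362_x_at, which went from 118.8 to 796.4 and was 5.07-fold higher. In these 3 both the KO signal and the ratio were large. Their log2 ratios were 2.84, 2.49 and 2.34.

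Below them came members with dimmer control signals, several of them close to the floor of 60.9. The signal of 1456319_at went from 93.7 to 470.5 (3.80-fold), and that of 1419149_at from 61.0 to 305.1 (3.78-fold). The set 1457100_at went from 66.0 to 296.6 (3.40-fold) and 1442384_at from 67.3 to 270.0 (3.04-fold). Of the 12 higher members, 5 had a control signal within 1.5 times the floor, so their ratios are close to bounds. The remaining higher members were 1425113_x_at (115.7 to 435.1, 2.85-fold), 1438750_at (141.5 to 405.3, 2.17-fold), 1445322_x_at (67.1 to 187.7, 2.12-fold) and 1455677_s_at (65.7 to 179.8, 2.07-fold), and 1 very bright set.

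That bright set was 1455316_x_at, which stood apart from the other higher members in level. Its control signal was 3247.5 and its KO signal 10114.4, 2.36-fold higher and 3.11-fold as deposited. The KO signal is close to those of the brightest members, which had ratios slightly below the shift. The other 11 higher members had control signals of at most 219.2.

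Sets with _x_at were frequent among the higher members. They made up 5 of the 12, and 5 of the 95 members with _x_at above both floors were at least 2-fold higher (5.26%), compared with 6 of 1485 with _at (0.40%), 1 of 55 with _s_at and 0 of 127 with _a_at. Among single-gene probe sets the shares were 1.23% of 1221 with _x_at and 0.89% of 13191 with _at. Over all 1416 _x_at sets above both floors, 1.55% were higher and 0.35% lower. Of the 100 _x_at sets with several symbols, 2.00% were higher and 0 lower. No member with _x_at above both floors was 2-fold lower, which is near the share over all _x_at sets. The difference from single-gene _x_at sets lay in the tail and not in the middle. The middle 50% of the _x_at members ran from -0.20 to 0.15 on the log2 scale and that of the single-gene _x_at sets from -0.19 to 0.18, while the SDs were 0.54 and 0.34. Since some probes of an _x_at set match other sequences, a signal can sum several transcripts, and which ones was not tested.

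Above both floors, the highest single ratios with _a_at and _s_at were smaller than the highest with _x_at and _at. This held for the extremes alone, which were drawn from unequal numbers of members (127, 55, 95 and 1485). The middle 50% of the log2 ratios reached up to 0.16 for _a_at, 0.09 for _s_at, 0.15 for _x_at and 0.07 for _at. The highest _a_at members there were 1452777_a_at (228.3 to 503.6, 1.67-fold), 1450340_a_at (114.5 to 242.4, 1.60-fold) and 1423292_a_at (201.6 to 414.3, 1.55-fold). They passed 2-fold as deposited and not relative to the shift. After 1455677_s_at, the highest _s_at members above both floors were 1458407_s_at (126.4 to 221.3, 1.32-fold) and 1437874_s_at (411.4 to 714.2, 1.31-fold).

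The lower members were dim as a group. Their control signals ran from 122.7 to 648.1 with a median of 142.4, and their KO signals from 74.5 to 362.6 with a median of 86.2. In 17 of the 22 the KO signal was within 1.5 times the floor of 74.2. The lowest ratio belonged to 1458598_at, with a control signal of 235.7 and a KO signal of 86.3, 3.61-fold lower and 2.73-fold as deposited. It was followed by 1443509_at (213.5 to 85.7, 3.29-fold lower) and 1443256_at (176.4 to 79.2, 2.94-fold lower). All 3 ended near the floor on the KO array.

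The KO signal was further from the floor in the other 5 lower members, though in 19 of the 22 it was within 2 times the floor. The set 1447374_at went from 271.0 to 123.8 (2.89-fold lower) and 1422964_at from 223.8 to 114.3 (2.59-fold lower). The brightest lower member was 1441779_at, which went from 648.1 to 362.6, 2.36-fold lower and 1.79-fold as deposited. The remaining ones among the 12 lowest were 1459078_at (191.3 to 88.3), 1442323_at (142.6 to 74.5), 1458927_at (142.1 to 85.2), 1451684_a_at (126.5 to 76.5), 1430033_at (140.8 to 85.3) and 1422982_at (140.7 to 86.7), between 2.15-fold and 2.86-fold lower. By suffix, the lower members were 18 of 1485 with _at (1.21%), 3 of 127 with _a_at (2.36%) and 1 of 55 with _s_at (1.82%), where the shares over all probe sets above both floors were 0.50%, 0.38% and 0.35%.

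Above both floors, the lower _a_at members after 1451684_a_at were 1453623_a_at (286.9 to 183.0, 2.07-fold lower) and 1425383_a_at (131.7 to 86.0, 2.02-fold lower). The lowest _s_at members above both floors were 1449632_s_at (140.7 to 88.2, 2.11-fold lower), 1443382_s_at (94.3 to 80.4, 1.55-fold) and 1439553_s_at (4030.5 to 3796.8, 1.40-fold). The lowest _x_at members above both floors did not reach 2-fold. They were 1437462_x_at (112.8 to 83.8, 1.78-fold lower), 1420304_x_at (1128.9 to 839.7, 1.78-fold) and 1447681_x_at (131.1 to 109.1, 1.59-fold). Among these, 1420304_x_at and 1439553_s_at were well above both floors and, like the dimmer ones, brighter on the control array also as deposited.

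Members under the control floor alone gave lower bounds. Of 242, 10 had a bound of at least 2-fold higher (4.13%), next to 4.66% of the 1566 probe sets in that position over the whole array, so the members were near the background. The largest bound was that of 1452452_at, with a control signal of 12.5 and a KO signal of 517.1, at least 6.42-fold higher. It was followed by 1420448_at (29.7 and 334.8, at least 4.16-fold), 1425101_a_at (16.9 and 330.8, at least 4.11-fold) and 1428670_at (51.7 and 290.3, at least 3.61-fold). These 4 had KO signals from 290.3 to 517.1, where the median single-gene probe set above both floors had 317.1.

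Smaller bounds belonged to 1420786_a_at (9.1 and 222.7, at least 2.77-fold), 1425469_a_at (44.6 and 185.6, at least 2.31-fold), 1433334_at (46.8 and 181.1, at least 2.25-fold) and 1419229_at (19.1 and 174.9, at least 2.17-fold). Sets with _a_at made up 3 of the 10 bounds, from 9 _a_at members above the KO floor alone, and over the whole array 11 of 136 _a_at sets in that position (8.09%) had such a bound.

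In the other direction, 7 of the 450 members above the floor on the control array alone had a bound of at least 2-fold lower (1.56%), beside 2.02% of the 1582 probe sets in that position. The largest was that of 1457433_x_at, with a control signal of 163.5 and a KO signal of 34.1, at least 2.91-fold lower. Then came 1446426_at (148.0 and 67.9, at least 2.64-fold), 1443977_at (142.4 and 50.4, at least 2.54-fold) and 1439275_s_at (120.4 and 20.7, at least 2.14-fold). The rest were 1433167_at (119.2 and 22.3), 1458031_at (114.7 and 72.9) and 1443533_at (113.5 and 67.5), between at least 2.02-fold and at least 2.12-fold, and 1454491_at (110.2 and 37.5) stayed just under 2-fold. None of these had a control signal above 163.5. As deposited, 17 members had a bound of 2-fold higher and 1 of 2-fold lower, with 12.8% and 0.632% over all probe sets in those positions.

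Probe sets with consecutive ID numbers can be designed from related sequences, so the members' neighbours were compared. Among 29514 consecutive pairs in which both had 1 gene symbol, 9.68% named the same gene, and the share was 33.1% for an _at followed by an _s_at and 40.8% for an _a_at followed by an _x_at. Of the 24 neighbours of the 12 highest members, 19 had a gene name or names. Above both floors were 10, all of them named, with log2 ratios from -0.52 to 0.89. No unnamed neighbour of these 12 was above both floors, so a second large ratio among unnamed sets could not be seen there. Among neighbours that were themselves above both floors, none reached 2-fold beside the 12 highest or 12 lowest members or the 8 largest bounds in either direction. For example, 1451626_x_at stood between probe sets of C8g (3.3 and 4.4) and Slc1a2 (7.8 and 18.0), which were under the floor on both arrays.

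Consecutive members that were both unnamed had more similar ratios than consecutive probe sets of different genes. Over the 146 such pairs above both floors, Pearson's r between the log2 ratios was 0.37 and Spearman's rho was 0.38. Over 1649 consecutive pairs of the same gene r was 0.50, and over 9563 pairs of different genes it was 0.02. For 1094 pairs of a member and a single-gene set r was 0.00. These correlations are across probe sets on the same 2 arrays, which are not independent replicates, and members share a low signal level, whose part in the r of 0.37 was not tested.

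Of the 146 pairs, 92 (63.0%) had ratios of the same sign, compared with 67.3% of the pairs of the same gene and 50.6% of the pairs of different genes. Since 64.7% of the members lay below the shift, unrelated members would also share a sign more often than not. No pair had both members at least 2-fold different. The pair 1449631_at and 1449632_s_at came closest, with log2 ratios of -0.92 (123.5 to 86.1) and -1.08 (140.7 to 88.2). The pair 1426438_at and 1426439_at was higher on both sets, with 0.89 (216.7 to 530.4) and 0.67 (112.3 to 236.9). These were the only 2 pairs in which both members were at least 1.5-fold different in the same direction. Both pairs, and the 2 that follow, were chosen after their values were seen. At smaller ratios, 1436811_at and 1436812_at were both below the shift (-0.49 and -0.53), and 1435008_at and 1435009_at were both above it (0.50 and 0.44).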

How the data were processed

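Total RNA from 1 control culture and 1 Dnmt1 KO culture of mouse ES cells was measured on Affymetrix arrays. Per the submitters' processing notes the deposited intensities are MAS5 signals, which the authors summarised from the perfect-match and mismatch probes of each probe set. The sources used here give no target intensity, scaling or detection calls. The annotation table of the platform was matched by probe set ID, and a probe set it does not list is called unnamed, which does not mean that it reads no gene. The table held 45101 probe sets, of which 64 AFFX controls were left out.

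Signals were floored at each array's median, log2 transformed, subtracted (KO minus control) and centred on the median of all 20936 probe sets above both floors. No test was run, with 1 array per group, and probe sets past 2-fold were counted. Values were computed in Python 3.11.15 with numpy 2.4.6, pandas 2.3.3, scipy 1.17.1 and statsmodels 0.14.6, and the procedure was tested on simulated data. Named were Dnmt1, the 12 largest ratios and 8 largest bounds in each direction, 3 per suffix and direction, the 5 brightest members, 3 probe sets on either side of the signal threshold, and their neighbours. The members, lists and rules were chosen with earlier results of these data known. Other centrings, quantile normalization, lowess (fraction 0.3), other floors and other fold thresholds were tried.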

Additional observations from a re-analysis of the deposited data

How the results depend on the processing

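Each main value below was recomputed under 9 alternatives, and a median was taken as moved past 0.1 or on a change of sign, a count or the distance from the single-gene median past 1.5 times. The 12 higher members were all kept under every centring, quantile normalization and lowess. Of the 22 lower members, 5 remained as deposited, 11 with each signal divided by its own array's median, 19 under quantile normalization and 17 under lowess. Taking ratios as deposited or by each array's own median raises every log2 ratio. Higher members could therefore not be lost there and lower ones could, so that contrast says nothing of which calls are firmer. Centring on single-gene probe sets kept all 22 lower members. With the floor at the 75th percentile, 3 of the higher and 1 of the lower were kept.

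As deposited, 46 members were higher (35 with _at, 3 with _a_at) and 5 lower (5 with _at, 0 with _a_at, 0 with _s_at), 17 and 1 had bounds of 2-fold higher and lower, and the median log2 ratio was 0.29 (0.27 for _at, 0.40 for _a_at, 0.33 for _s_at, 0.39 for _x_at). With each signal divided by its own array's median, 10 members with _at were higher, 11 were lower (10 with _at, 1 with _a_at, 0 with _s_at), 3 had a bound of 2-fold lower, and the medians were 0.0028 for all members, -0.012 for _at, 0.12 for _a_at, 0.050 for _s_at and 0.10 for _x_at. Centring on single-gene probe sets turned the _a_at median from 0.0023 to -0.0090. The _x_at median of -0.02 became 0.029 under quantile normalization and 0.042 under lowess, which left 4 bounds of 2-fold lower. Shares over all probe sets are not given here for the counts by suffix, or for the bounds by own array median and under lowess. Those counts show how the scaling acts and not how the members differ from the array.

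With the floor at the 75th percentile, 3 members were higher (1 with _at, 0 with _s_at, 2 with _x_at) and 1 lower (1 with _at, 0 with _a_at, 0 with _s_at). The bounds were 1 higher and 0 lower, 51 members were above the floor on the control array alone and 33 on the KO array alone, and the _a_at median was -0.028. With the floor at the 25th percentile, 41 were higher (31 with _at, 2 with _a_at) and 104 lower (98 with _at, 3 with _x_at), 17 and 21 had bounds, and 21 and 17 were above the floor on the control and the KO array alone. At 1.5-fold, 48 were higher (37 with _at, 3 with _a_at), 139 lower (126 with _at, 6 with _a_at, 2 with _s_at, 5 with _x_at), and 17 and 63 had bounds. At 3-fold, 7 were higher (0 with _s_at, 2 with _x_at), 2 lower (2 with _at, 0 with _a_at, 0 with _s_at), and 4 and 0 had bounds. The shares over all probe sets at these floors and thresholds are not given here. These counts therefore show how the settings act and not how the members differ from the rest of the array. The distance of -0.13 from the single-gene median kept its sign, and became -0.079 under quantile normalization, -0.077 under lowess, -0.037 with the floor at the 75th percentile and -0.14 with the floor at the 25th. Of the 58 named members, all moved by more than the SD of 0.24 between probe sets of the same gene as deposited, since the shift is larger than that SD. With the floor at the 25th percentile 13 did, and with the floor at the 75th 15 of the 29 that kept a value did. No named member at least 2-fold different changed sign. The cause of these movements was not tested. Without detection calls, members near the floor cannot be called present, and the floor decides most counts. No paired analysis was possible because each group had 1 array and the labels give no replicate numbers.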

Other observations

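Unnamed probe sets were unevenly spread over the ID numbers of the array. In blocks of 5000 numbers, they made up 4.96% of the first block (1415670 to 1419999) and 44.6% of the block from 1440000 to 1444999, which held 2228 of them. Of all blocks, these had the lowest and the highest share of unnamed probe sets, and the highest and the lowest median ratio of the members. In the first block 60.3% of the unnamed probe sets were above the floor on at least 1 array, against 22.9% in the block from 1440000. For single-gene probe sets the shares were 74.7% and 34.1%. The median log2 ratio of the members above both floors was 0.00 in the first block and -0.22 in the block from 1440000. Single-gene probe sets in the same blocks had 0.03 and -0.07, so in the later block both kinds lay lower and the members lay lowest. That block held 153 members above the floor on the control array alone and 54 on the KO array alone, whereas the first held 2 and 9. These members passed the signal rule through that array only. The same counts for single-gene probe sets by block are not given here, so they describe the choice alone.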
